A study of Mus musculus with 24 samples.

Results

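The genes described here encode the proteasome, the immunoproteasome and their regulators. They were chosen by name, as every row of the expression files whose symbol begins with Psma to Psmg followed by a number. The rule gave 50 genes, the same 50 among the 18063 genes listed for M1 and the 17786 listed for M2 BMDMs, and 5 of them (Psmb8, Psmb9, Psmb10, Psme1 and Psme2) form the immunoproteasome subgroup. Of the 50, 48 are subunits or regulators. Psmc3ip, a recombination factor, shares only the start of its name, and Psme2b is a near copy of Psme2 with which it may share reads, so its values are uncertain.

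The libraries were made from BMDMs, macrophages grown from bone marrow, of C57BL/6 mice aged 10 weeks that were WT or lacked the dopamine receptor D5 (DRD5-/-). All cells were stimulated for 12 h. M1 BMDMs received LPS (100 ng/ml) with IFN-γ (50 ng/ml), M2 BMDMs received IL-4 and IL-13 (10 ng/ml each), and in either case dopamine (DA, 20 μM in the legends of the study) was added or left out. This made 8 groups of 3 libraries, 24 in all, with no unstimulated group. The labels do not say whether the 3 libraries of a group came from separate mice or cultures, so the p-values measure the spread between these libraries, which may be technical.

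The proteasome degrades proteins tagged with ubiquitin. Its 20S core is a barrel of α and β subunits in which Psmb5, Psmb6 and Psmb7 encode the constitutive catalytic subunits, and the 19S cap, built of Psmc ATPases and Psmd non-ATPase subunits, recognises, unfolds and feeds the substrates. Interferon-γ induces Psmb8, Psmb9 and Psmb10, which replace Psmb5, Psmb6 and Psmb7 in newly assembled cores, and the PA28 activator subunits Psme1 and Psme2, and the resulting immunoproteasome favours peptides that fit class I MHC molecules.

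Values are FPKM, fragments scaled to transcript length and to mapped depth, so levels can be compared between genes. Depth behind the values is unknown, because no read counts were given and the low values, rounded to 2 decimals, did not resolve single reads. All FPKM of a library added up to 476187 to 503799, and log2(FPKM + 1) of libraries of a group correlated across genes with r of 0.997 to 0.998. Of the 50 genes, 47 in M1 and 48 in M2 were at 1 FPKM or more in 3 or more of the 12 libraries, and these were tested with limma on log2(FPKM + 1). The germ-cell subunit Psma8 (0.06 to 1.21 FPKM) and the thymic subunit Psmb11 (0.06 to 0.47 FPKM) were not tested in either, nor was Psmc3ip in M1. The threshold was the cutoff of the study, a fold of 1.2 or more together with an adjusted p below 0.001. Drd5 was not listed for M1 and was at 0 in 10 of the 12 M2 libraries (0.06 FPKM at most), so its transcript did not check the genotype labels. The 8 macrophage markers summed to 7263 to 11297 FPKM in every group. The summed M1 markers were 2697 to 3183 FPKM in M1 and 5.6 to 9.5 FPKM in M2 libraries. T cell and B cell markers summed to at most 0.7 FPKM and dendritic cell markers to at most 2.84 FPKM.

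Some markers, of other cells and of macrophages, moved with the groups. In M1 WT libraries the 4 neutrophil markers, mainly S100a8, summed to 32.0 to 38.6 FPKM without and 49.5 to 59.6 FPKM with DA (14.2 to 19.4 FPKM in M1 DRD5-/- libraries). The macrophage markers of M1 WT libraries summed to 7482 to 7600 FPKM without and 8170 to 8245 FPKM with DA. The M1 markers of these libraries summed to 3131 to 3183 FPKM without and 2697 to 2758 FPKM with DA (3014 to 3098 FPKM in M1 DRD5-/- libraries). In M2 WT libraries the 3 fibroblast markers summed to 114 to 117 FPKM without and 91.7 to 93.2 FPKM with DA (71.7 to 78.8 FPKM in M2 DRD5-/- and 3.65 to 4.45 FPKM in M1 libraries). The epithelial markers, almost only Cdh1, summed to 2.15 to 2.24 FPKM without and 16.8 to 17.2 FPKM with DA, and the summed macrophage markers were 10719 to 10890 FPKM without and 8349 to 8388 FPKM with DA. The 5 M2 markers, mainly Arg1, summed to 77.9 to 78.6 FPKM in untreated and 196 to 205 FPKM in DA-treated M1 WT libraries. In M2 WT libraries these 5 markers summed to 544 to 562 FPKM without and 1599 to 1635 FPKM with DA (454 to 511 FPKM in M2 DRD5-/- libraries). Their part in the results below was not tested. In bulk RNA, fewer cells of a type and less RNA per cell cannot be told apart, nor can other cells and a change of these genes within macrophages.

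In untreated WT cells the immunoproteasome genes were all higher in M1 than in M2 BMDMs, and the α ring chaperones Psmg1 to Psmg4 were all lower. The median over all genes was also below 0, at -0.39. Relative to it Psmg3 and Psmg4 were only at -0.24 and -0.39. Psmb9, the β1i subunit, stood at 140.4, 154 and 147 FPKM in the M1 WT libraries and at 30.8, 25.0 and 27.0 FPKM in the M2 WT libraries. Psmb8, the β5i subunit, stood at 231, 240 and 236 against 81.7, 74.8 and 81.2 FPKM. Psme2, the PA28β subunit, stood at 430, 441 and 436 against 118, 118 and 137 FPKM. For these genes every M1 library was above every M2 library, with a log2 fold change of 2.38 ± 0.05 (SE) for Psmb9, 1.80 ± 0.05 for Psme2 and 1.56 ± 0.04 for Psmb8 (adjusted p = 1.91e-21, 6.85e-20 and 4.79e-21, limma). Psme1, the PA28α subunit, differed by 1.26 ± 0.03 and Psmb10, the β2i subunit, by only 0.40 ± 0.04: it averaged 146 ± 1.74 FPKM (SD, n = 3) in M1 WT and 111 ± 2.66 FPKM in M2 WT BMDMs. The FPKM tables of the 2 stimuli hold different gene lists, and the stimulus and the set of files cannot be told apart.

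**Figure D1:**
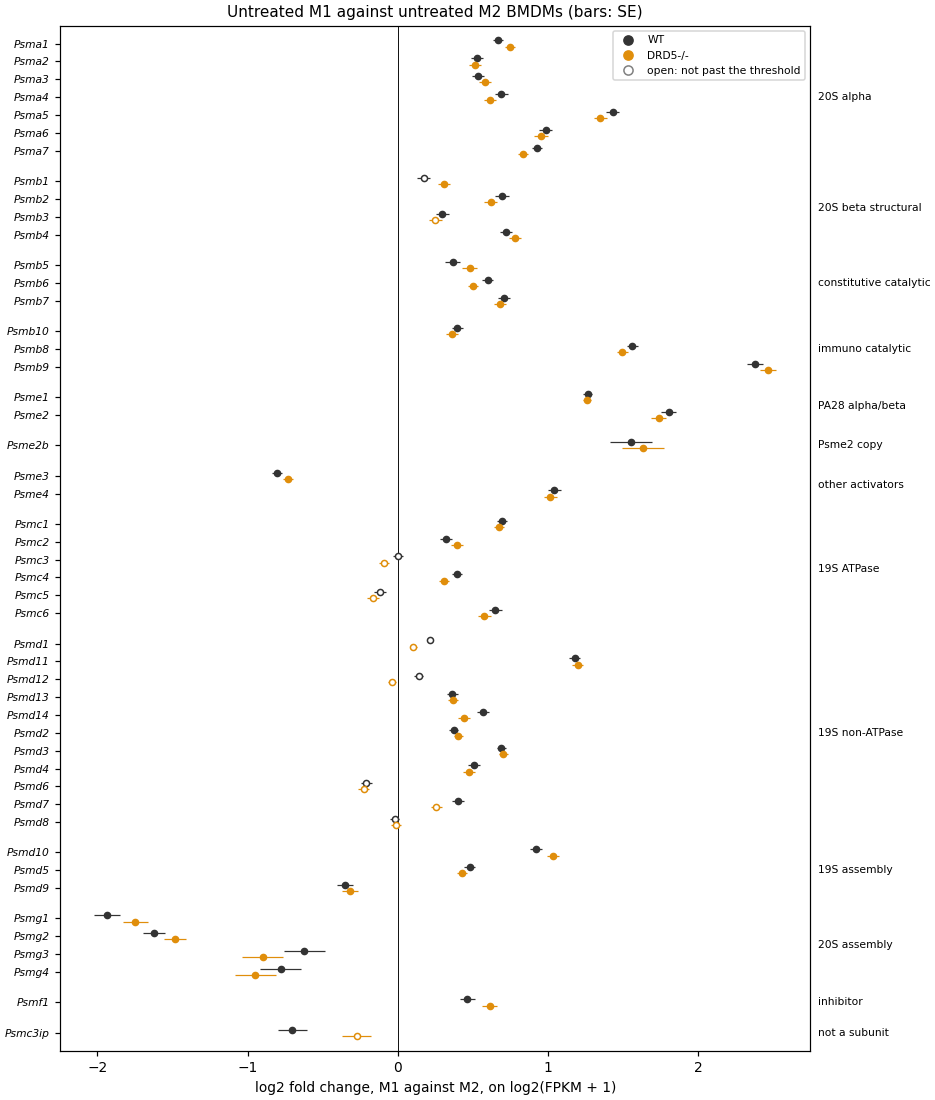
Log2 fold change (x axis, M1 against M2, on log2(FPKM + 1)) of each tested proteasome gene (y axis, by role) in untreated WT (dark) and untreated DRD5-/- BMDMs (orange). Bars are SE and open points are not past the threshold. Psmb9 lies furthest to the right at 2.38 in WT, and the 4 chaperones Psmg1 to Psmg4 lie left of 0 in both genotypes.

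Across the whole complex, 34 of the 48 tested genes were higher and 7 lower in M1 WT than in M2 WT BMDMs, where 22.6% of all 11148 genes tested were higher and 54.9% lower. The median log2 difference was 0.49 over the proteasome genes and -0.39 over all genes. Relative to that median over all genes, 42 of the 48 lay above and 6 below it. All 7 tested 20S α genes were higher, led by Psma5 (1.43, or 1.82 relative to all genes), as were 17 of the 24 other constitutive 20S and 19S genes, led by Psmd11, the RPN6 subunit of the 19S lid (1.18, or 1.56 relative to all genes). Psmd8, the 19S subunit with the highest FPKM, averaged 226 ± 1.18 FPKM in M1 and 229 ± 2.97 FPKM in M2 WT BMDMs. Psmg1 to Psmg4 encode chaperones that pair and order the α ring. Psmg1 averaged 2.78 ± 0.09 FPKM in M1 and 13.5 ± 0.57 FPKM in M2 WT BMDMs (log2 fold change -1.94 ± 0.08, or -1.55 relative to all genes). The activator Psme3, PA28γ, was also lower (-0.80, or -0.42 relative to all genes), while Psme4, PA200, was higher (1.04, or 1.43). The 19S chaperone Psmd9 was lower at -0.35 but at 0.05 with median-of-ratios scaling.

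In untreated DRD5-/- cells the same comparison put 33 genes higher and 6 lower, against 23.4% and 53.8% of all genes, and the 5 immunoproteasome genes were again higher (Psmb9 by 2.46, Psmb10 by 0.36). Median-of-ratios scaling moved the median over all genes to -0.01 in WT and -0.02 in DRD5-/- cells. In WT cells 40 genes were then higher and 4 lower (Psmg1, Psmg2, Psme3 and Psmc3ip), so Psmg3 and Psmg4 lost the call. Of all genes, 4044 were higher and 4125 lower in WT. In DRD5-/- cells 39 proteasome genes were higher and 4 lower.

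**Figure D2:**
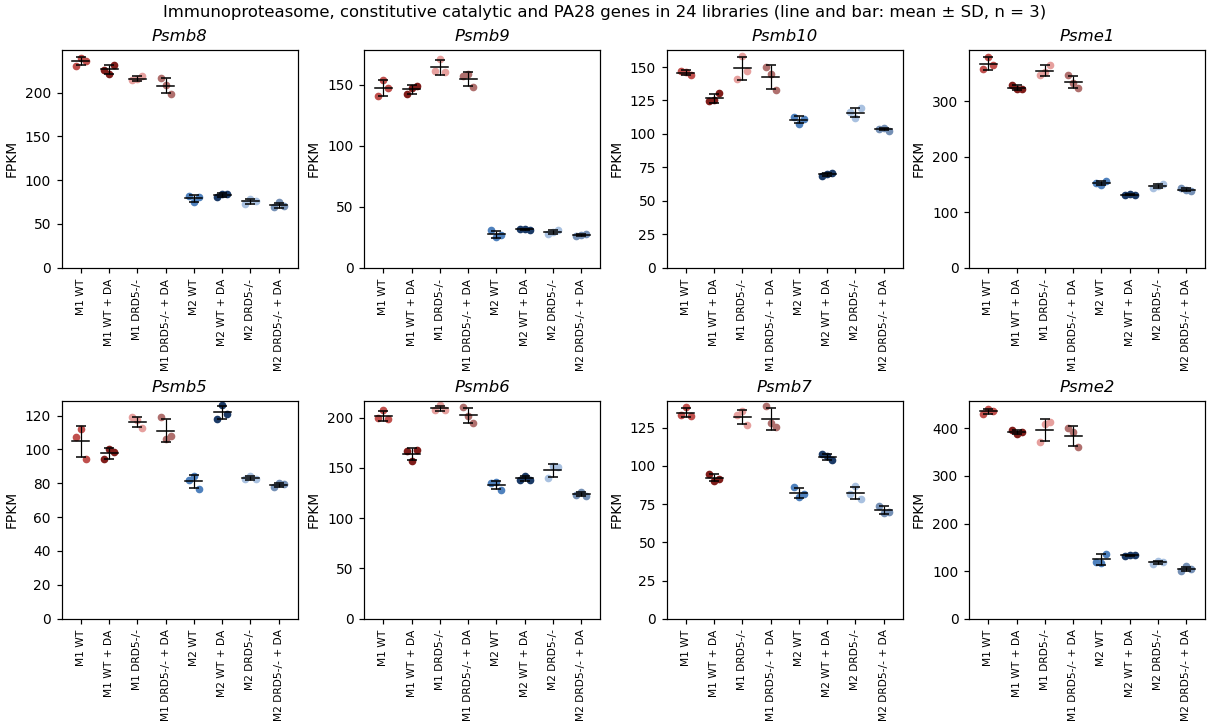
FPKM (y axis, from 0) of the 3 immunoproteasome catalytic genes, their 3 constitutive counterparts and the PA28 genes Psme1 and Psme2 in each of the 8 groups (x axis). Points are libraries, and lines with bars are mean ± SD (n = 3). Psmb10 falls to 69.9 FPKM in M2 WT + DA, where Psmb5 is at its highest of 122 FPKM.

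The promoters of the 3 immunoproteasome catalytic genes are shown beside that of Psmb5, the constitutive catalytic gene that rose most with DA in M2 WT cells, because these genes moved apart in the comparisons that follow. Each is the 250 bases before the gene's start, read 5′ to 3′ on the gene's strand (RefSeq, GRCm38.p6). Capitals mark a match to TGACNNNGC, the antioxidant response element, in Psmb5 and to CCAAT, read on the opposite strand, in Psmb9.
Psmb8, chr17:34197945-34198194, plus strand: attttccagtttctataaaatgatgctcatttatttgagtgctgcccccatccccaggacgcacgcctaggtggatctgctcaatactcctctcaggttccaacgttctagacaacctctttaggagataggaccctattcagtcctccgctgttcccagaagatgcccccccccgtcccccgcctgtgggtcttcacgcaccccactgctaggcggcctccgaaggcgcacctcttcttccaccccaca
Psmb9, chr17:34187331-34187580, minus strand: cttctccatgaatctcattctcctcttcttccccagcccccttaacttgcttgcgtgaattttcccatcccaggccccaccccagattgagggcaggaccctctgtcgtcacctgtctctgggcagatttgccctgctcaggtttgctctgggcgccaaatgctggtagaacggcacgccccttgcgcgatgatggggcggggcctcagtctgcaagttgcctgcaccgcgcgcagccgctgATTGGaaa
Psmb10, chr8:105938393-105938642, minus strand: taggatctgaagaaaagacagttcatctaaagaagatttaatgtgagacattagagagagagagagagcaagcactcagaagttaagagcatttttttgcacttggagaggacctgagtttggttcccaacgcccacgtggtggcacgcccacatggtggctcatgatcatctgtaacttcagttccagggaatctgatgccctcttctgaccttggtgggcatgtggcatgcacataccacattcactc
Psmb5, chr14:54617996-54618245, minus strand: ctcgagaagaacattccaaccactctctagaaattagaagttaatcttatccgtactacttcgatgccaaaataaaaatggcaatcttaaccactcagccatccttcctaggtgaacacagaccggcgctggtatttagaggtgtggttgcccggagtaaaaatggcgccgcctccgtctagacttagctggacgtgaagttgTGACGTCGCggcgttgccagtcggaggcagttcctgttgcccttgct
Psmb9 and Tap1, a subunit of the peptide transporter for class I MHC, are neighbours on chromosome 17 (Psmb9 at 34182030 to 34187330, Tap1 at 34187556 to 34197225), so the Psmb9 window also covers the first bases of Tap1, and Psmb8 (34198195 to 34201454) follows Tap1. Of the 50 genes, 42 had a promoter in the table. TGACNNNGC, searched on both strands, was found in 5 of them (Psmb5, Psmb6, Psmc6, Psmd9 and Psmd12) and in 11.5% of 27025 genes. CCAAT was found in 15 of 42 and in 37.5% of genes, and the interferon-stimulated element GAAANNGAAA in 3 of 42 and in 3.46%. TTCCNGGAA, a narrow form of the gamma-activated site, was found in 0 of 42, against 1.09% of genes. The cAMP response element TGACGTCA was found in 0 of 42, against 1.77%. Looser forms of these sites were not searched, so a count of 0 holds for the exact string only. The matches are a description of these windows only.

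In M1 WT BMDMs a large part of the constitutive proteasome was lower with DA. Of 47 tested genes 17 fell and 0 rose, where 9.6% of the 10040 genes tested fell and 4.73% rose, and the median log2 change was -0.22 over the proteasome genes and -0.07 over all genes. Of the 17 calls, 16 lay among the 31 constitutive 20S and 19S genes, 5 of the 6 ATPases included. None of the 5 immunoproteasome genes was past the threshold, and none of the 4 chaperones Psmg1 to Psmg4. Psmb10, Psme1 and Psme2 were nevertheless lower with DA, without overlap of the groups but by less than 1.2-fold.

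Psmb7, the constitutive trypsin-like (β2) subunit, changed most. It stood at 133, 138 and 133 FPKM in the M1 WT libraries and at 94.8, 90.3 and 91.6 FPKM with DA, so that every DA library was below every untreated one. This is a log2 fold change of -0.54 ± 0.04 (SE), 1.46-fold lower (adjusted p = 4.63e-08, limma). Psmd3, the RPN3 subunit of the 19S lid, went from 70.8, 68.4 and 67.5 FPKM to 47.7, 50.5 and 48.9 FPKM, a change of -0.48 ± 0.03 (adjusted p = 3.30e-08). Psmc4, an ATPase of the 19S base, went from 85.4, 86.0 and 86.4 FPKM to 63.8, 66.9 and 63.7 FPKM (-0.40 ± 0.03, adjusted p = 1.20e-07). The groups did not overlap for either gene. Psma6 of the α ring went from 147, 147 and 148 to 123, 112 and 115 FPKM (-0.34 ± 0.03, adjusted p = 8.89e-07). Psmb2, a structural β subunit, went from 165, 166 and 170 to 132, 134 and 135 FPKM (-0.32 ± 0.03, adjusted p = 3.48e-06). Psmd9, a chaperone of the 19S base, had lower levels, 7.21, 7.61 and 7.26 FPKM without and 5.65, 5.87 and 5.72 FPKM with DA (-0.31 ± 0.05, adjusted p = 1.85e-04). Psmd9 was no longer past the threshold when untreated replicate 2 or DA replicate 1 or 3 was left out (-0.29, -0.30 and -0.31). In none of these 6 genes, and in none of the 17 that fell, did the groups overlap. Genes past the threshold were picked from these same libraries, so such gaps are no separate support, here and below.

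The immunoproteasome genes were not past the threshold in M1 WT BMDMs. Psmb8 was at 231, 240 and 236 FPKM without and 226, 221 and 231 FPKM with DA, and Psmb9 at 140.4, 154 and 147 FPKM without and 142, 147 and 149 FPKM with DA, with overlapping groups in both (log2 fold changes -0.06 ± 0.03 and -0.01 ± 0.04; 0.02 and 0.06 with median-of-ratios scaling). Psmb10 was at 147, 146 and 144 FPKM without and 124, 125 and 131 FPKM with DA, Psme1 at 358, 380 and 366 against 329, 321 and 321 FPKM, and Psme2 at 430, 441 and 436 against 396, 389 and 393 FPKM. For these 3 genes the groups did not overlap, but the changes of -0.20, -0.18 and -0.15 were smaller than 1.2-fold (adjusted p = 1.99e-03, 2.64e-04 and 9.06e-03, limma). Psmb5, the constitutive chymotrypsin-like (β5) subunit, was at 107, 112 and 94.5 FPKM without and 94.2, 100.1 and 98.6 FPKM with DA (-0.10 ± 0.06, not past the threshold), and Psmb6 (β1) fell from 199, 208 and 198 to 167, 157 and 167 FPKM (-0.30 ± 0.03).

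Median-of-ratios scaling left 7 of the 17 falls past the threshold (Psma6, Psmb7, Psmc4, Psmc6, Psmd3, Psmd6 and Psmd12), where 539 of all 10040 genes fell, and turned none of the 17 upward. It moved the median of the proteasome genes to -0.14, that of all genes to -0.003, and the share of all calls that rose from 33.0% to 55.6%.

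In M2 WT BMDMs a large part of the constitutive complex was higher with DA. Of 48 tested genes 23 rose and 1, Psmb10, fell, where 25.9% of the 10735 genes tested rose and 20.4% fell. The median log2 change was 0.26 over the proteasome genes and 0.03 over all genes. Of the 31 constitutive 20S and 19S genes 17 rose and 0 fell, the others including Psmd8 (-0.01), Psma4 (0.04) and Psmb6 (0.07), and among genes of the complex the assembly chaperones Psmg1 and Psmg2 rose most.

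**Figure D3:**
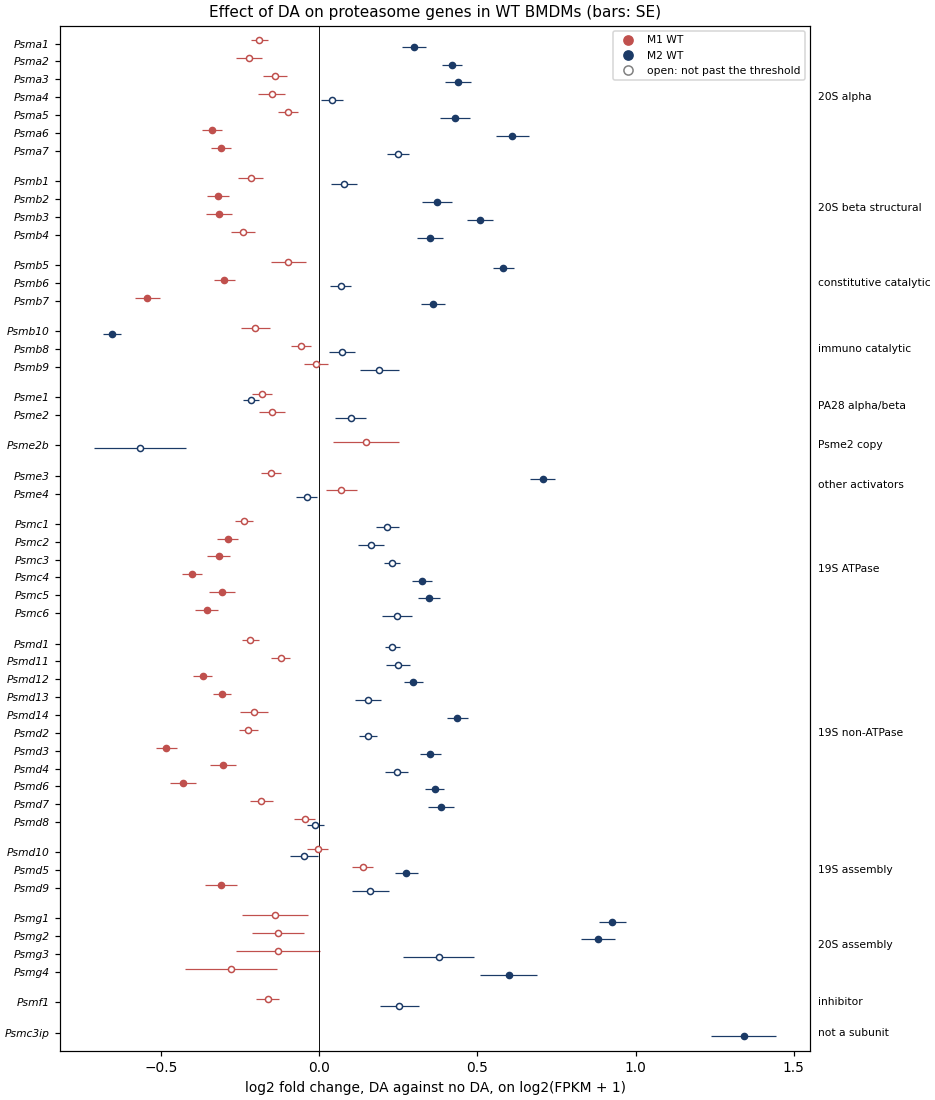
Log2 fold change with DA (x axis, on log2(FPKM + 1)) of each tested proteasome gene (y axis, by role) in M1 WT (red) and M2 WT BMDMs (blue). Bars are SE and open points are not past the threshold. The M1 points of the core and cap lie left of 0 down to -0.54 for Psmb7, most M2 points lie right of 0, and Psmb10 is the one filled M2 point on the left, at -0.65.

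Psmg1, the PAC1 chaperone of α ring assembly, went from 13.6, 12.9 and 14.01 FPKM in M2 WT libraries to 26.8, 26.1 and 26.5 FPKM with DA, 1.90-fold on the log2(FPKM + 1) scale (log2 fold change 0.93 ± 0.04 SE, adjusted p = 9.83e-11, limma). Its partner Psmg2 rose by 0.88 ± 0.05 from a mean of 9.57 to 18.4 FPKM, and Psmg4 rose by 0.60 ± 0.09. Psme3, PA28γ, a nuclear activator of the core, went from 50.7, 52.0 and 47.5 to 84.6, 80.2 and 81.9 FPKM (0.71 ± 0.04, adjusted p = 7.30e-10). For each of these 4 genes every DA library was above every untreated one.

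In the core, Psma6 went from 70.8, 70.8 and 81.6 to 111, 119 and 112 FPKM (0.61 ± 0.05, adjusted p = 7.15e-08, limma). Psmb5 went from 81.8, 84.5 and 76.8 to 118, 126 and 121 FPKM (0.58 ± 0.03, adjusted p = 1.26e-09). Psmb3, a structural β subunit, went from 91.2, 88.7 and 86.0 to 129, 126 and 124 FPKM (0.51 ± 0.04, adjusted p = 4.48e-08). The DA libraries of these genes lay well above the untreated ones. In the cap, Psmd14, the deubiquitinase of the 19S lid, went from 39.2, 38.0 and 39.9 to 52.1, 53.8 and 53.7 FPKM (0.44 ± 0.03, adjusted p = 3.09e-08). The ATPase Psmc5 went from 60.9, 58.2 and 61.4 to 78.3, 78.1 and 74.0 FPKM (0.35 ± 0.04, adjusted p = 6.64e-07), and the 19S chaperone Psmd5 from 21.1, 19.8 and 20.5 to 25.1, 25.6 and 24.3 FPKM (0.28 ± 0.04, adjusted p = 1.04e-05; 0.25 and not past the threshold with median-of-ratios scaling or without untreated replicate 2, and 0.26 without DA replicate 2). None of these groups overlapped either. Psmc3ip, which is no subunit, went from 1.2, 1.05 and 1.71 to 4.56, 5.08 and 4.89 FPKM.

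Psmb10 was the exception in the core. It was at 113, 108 and 111 FPKM in the untreated M2 WT libraries and at 68.6, 70.4 and 70.5 FPKM with DA, a log2 fold change of -0.65 ± 0.03, 1.57-fold lower (adjusted p = 3.17e-11, limma), with no overlap. Its constitutive counterpart Psmb7 rose from 86.0, 79.6 and 81.7 to 108, 106 and 104 FPKM (0.36 ± 0.04). The other immunoproteasome genes were not past the threshold. Psmb8 was at 81.7, 74.8 and 81.2 FPKM without and 81.1, 84.3 and 84.7 FPKM with DA (0.07 ± 0.04), and Psmb9 at 30.8, 25.0 and 27.0 against 32.0, 31.7 and 30.9 FPKM, without overlap (0.19 ± 0.06; 0.27 and past the threshold without untreated replicate 1). Psme1 was at 152, 149 and 156 FPKM without and at 131, 133 and 131 FPKM with DA, without overlap, but its change of -0.21 ± 0.03 was under 1.2-fold (adjusted p = 3.57e-06). Psme2 was at 118, 118 and 137 FPKM without and 132, 134 and 134 FPKM with DA (0.10 ± 0.05).

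The effects of DA in M1 WT and M2 WT BMDMs share no libraries and were compared directly. In that test 36 of 48 proteasome genes had a lower effect of DA in M1 than in M2 cells and 1, Psmb10, a higher one, where 28.2% of all genes had a lower one. Of the 31 constitutive 20S and 19S genes 29 were among the 36. Of the 17 genes that fell in M1 WT cells, 9 rose in M2 WT cells (Psma6, Psmb2, Psmb3, Psmb7, Psmc4, Psmc5, Psmd3, Psmd6 and Psmd12), which is 52.9% of the M1 falls and 39.1% of the 23 M2 rises. Over the 9620 genes tested in both stimuli, 433 fell in M1 and rose in M2, 47.7% of the M1 falls and 17.6% of the M2 rises. The log2 fold change was below 0 in M1 and above 0 in M2 for 40 of the 47 proteasome genes tested in both and for 3691 of the 9620 genes. Across those 47 genes, which share their libraries, the sizes of the M1 and M2 changes had a Pearson r of -0.27, and over all 9620 genes r was -0.11.

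In DRD5-/- cells DA moved 0 genes past the threshold in M1 and 1 in M2 BMDMs. In M1 DRD5-/- BMDMs 0 of 47 genes passed the threshold with DA, as did 0% of all genes tested (limma; 3 of the 47 had an unadjusted p under 0.05, and 0 passed under any alternative processing, an adjusted p under 0.05 included). The median change was -0.02. Psmb7 stood at 133, 136 and 127 FPKM without and 139, 128 and 125 FPKM with DA, and Psmd3 at 69.3, 71.1 and 69.7 against 73.4, 68.8 and 68.7 FPKM, with overlapping groups. In M2 DRD5-/- BMDMs 1 of 48 genes was past the threshold, against 4.02% of all genes. It was Psmb3, at 87.0, 98.7 and 92.5 FPKM without and 73.9, 79.2 and 76.0 FPKM with DA (-0.28 ± 0.04, adjusted p = 2.30e-04, limma), a fall where WT cells rose. Psmb3 lost the call when untreated replicate 2 or 3 or DA replicate 1 or 3 was left out (-0.23 to -0.28). The median change over the 48 genes was -0.10, against 0.01 over all genes, and 39 of them had a value below 0. An unadjusted p was under 0.05 for 32 of the 48, and the groups of 31 did not overlap. How many of all genes had such a p, in M1 or M2, such groups or a value below 0 was not counted. Psmg1 stood at 12.8, 11.9 and 11.8 FPKM without and 10.7, 11.6 and 10.8 FPKM with DA, and Psmb10 at 116, 112 and 119 against 104, 105 and 102 FPKM (-0.16 ± 0.03, under 1.2-fold). The DA libraries lay below the untreated ones for both genes.

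**Figure D4:**
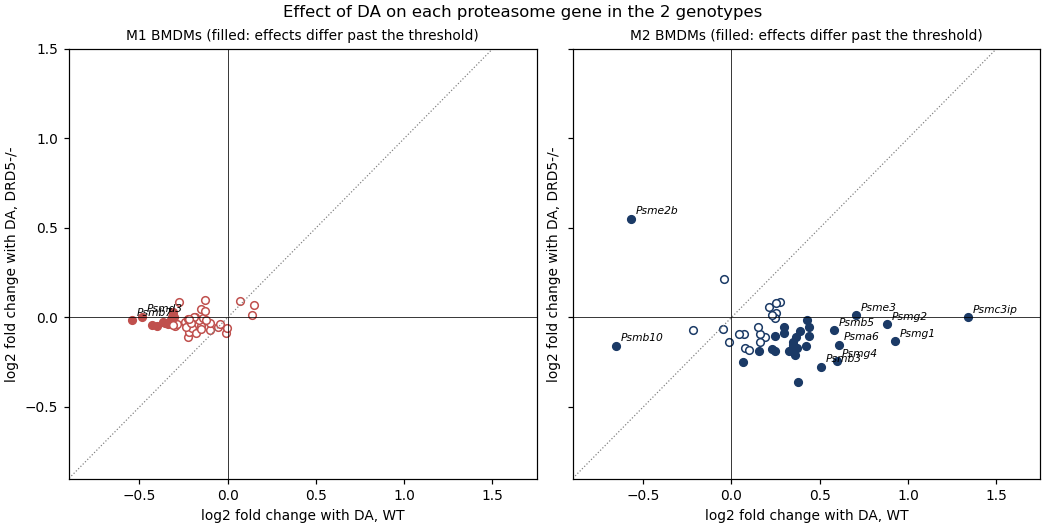
Log2 fold change with DA in WT (x axis) against that in DRD5-/- BMDMs (y axis) for each tested proteasome gene, in M1 (left, red) and M2 (right, blue). Filled points are genes whose effects differed between genotypes past the threshold, and the dotted line marks equal effects. The points spread along the x axis from -0.54 in M1 to 1.34 in M2 (Psmc3ip), while most lie near 0 on the y axis.

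The difference between genotypes was tested as an interaction. In M1 BMDMs the effect of DA differed for 13 of 47 genes, each with a higher value in DRD5-/- cells, where 5.18% of all genes did so. All 13 were constitutive core or cap genes, led by Psmb7 (difference 0.53 ± 0.05, adjusted p = 5.43e-06, limma) and Psmd3 (0.49 ± 0.05, adjusted p = 2.96e-06). With median-of-ratios scaling 5 of the 13 remained past the threshold (Psma7, Psmb7, Psmc4, Psmd3 and Psmd12), where 260 of all 10040 genes had a higher value in DRD5-/- cells. The share of all such calls with a higher value in DRD5-/- cells went from 61.8% to 36.1%. In M2 BMDMs the effect differed for 30 of 48 genes, 28 with a lower value in DRD5-/- cells, where 22.8% of all genes had a lower one. Psmg1 (-1.06 ± 0.06), Psmb3 (-0.78 ± 0.06) and Psma6 (-0.76 ± 0.07) were among the largest, and the 2 with a higher value were Psmb10 (0.50 ± 0.04) and the uncertain Psme2b (1.12 ± 0.20). All 4 genes Psmg1 to Psmg4 and all 3 constitutive catalytic genes were among the 28.

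Among DA-treated cells alone, 9 genes were higher in M1 DRD5-/- than in M1 WT BMDMs and 0 lower, where 12.6% of all genes were higher, and 35 of 48 were lower in M2 DRD5-/- than in M2 WT BMDMs, where 29.2% of all genes were lower. Psmb10 (0.56) and Psme2b (0.99) were the 2 that were higher in M2 DRD5-/- cells. With median-of-ratios scaling the M1 count was 3 higher and 1 lower, where 792 of all 10040 genes were higher and 875 lower. The share of all M1 calls that were higher went from 67.9% to 47.5%. This comparison shares the DA-treated WT libraries with those above. Among untreated cells 0 of 47 and 0 of 48 genes were past the threshold between genotypes, where 0.936% and 5.51% of all genes were (limma). The member counts stayed at 0 under every alternative processing, an adjusted p under 0.05 included. An unadjusted p was under 0.05 for 19 of 47 in M1 and 14 of 48 in M2, which was not counted over all genes. The median difference, DRD5-/- against WT, was -0.05 in M1 and -0.04 in M2, against -0.01 and -0.03 over all genes, and with median-of-ratios scaling the M2 value was 0.01.

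The balance of immuno to constitutive catalytic genes was read within each library, so that it does not depend on scaling between libraries. The ratio of Psmb10 to Psmb7 was 1.31, 1.35 and 1.36 in untreated M2 WT libraries and 0.636, 0.663 and 0.679 with DA, a change in the mean log2 ratio from 0.42 ± 0.03 to -0.60 ± 0.05 (SD, n = 3; exact permutation p = 0.1, two-sided, the smallest that 3 against 3 allows). In M1 WT libraries the same ratio was higher with DA, from 1.10, 1.06 and 1.08 to 1.31, 1.39 and 1.42 with DA (log2 0.11 ± 0.03 to 0.46 ± 0.06; exact permutation p = 0.1). Neither pair of groups overlapped. In DRD5-/- libraries the mean log2 ratio was 0.17 without and 0.13 with DA in M1, and 0.50 without and 0.55 with DA in M2, with overlap.

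The log2 ratio of Psmb8 to Psmb5 averaged -0.03 ± 0.13 in untreated M2 WT and -0.55 ± 0.03 in DA-treated M2 WT libraries (SD, n = 3; exact permutation p = 0.1, no overlap), and 1.17 ± 0.13 and 1.21 ± 0.06 in M1 WT libraries (exact permutation p = 0.8). It was 0.89 ± 0.06 in untreated M1 DRD5-/- libraries, all below the untreated M1 WT libraries (exact permutation p = 0.1). The log2 ratio of Psmb9 to Psmb6 went from -0.46 ± 0.04 to -0.16 ± 0.07 with DA in M1 WT libraries (exact permutation p = 0.1, no overlap) and from -2.27 ± 0.16 to -2.15 ± 0.03 in M2 WT libraries (exact permutation p = 0.3). In M2 DRD5-/- libraries the Psmb9 to Psmb6 ratio was also higher with DA, -2.35 ± 0.05 without and -2.21 ± 0.07 with DA (exact permutation p = 0.1, no overlap). In untreated M1 cells it was higher in DRD5-/- (-0.35 ± 0.03) than in WT libraries (exact permutation p = 0.1, no overlap), the other direction from Psmb8 to Psmb5.

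**Figure D5:**
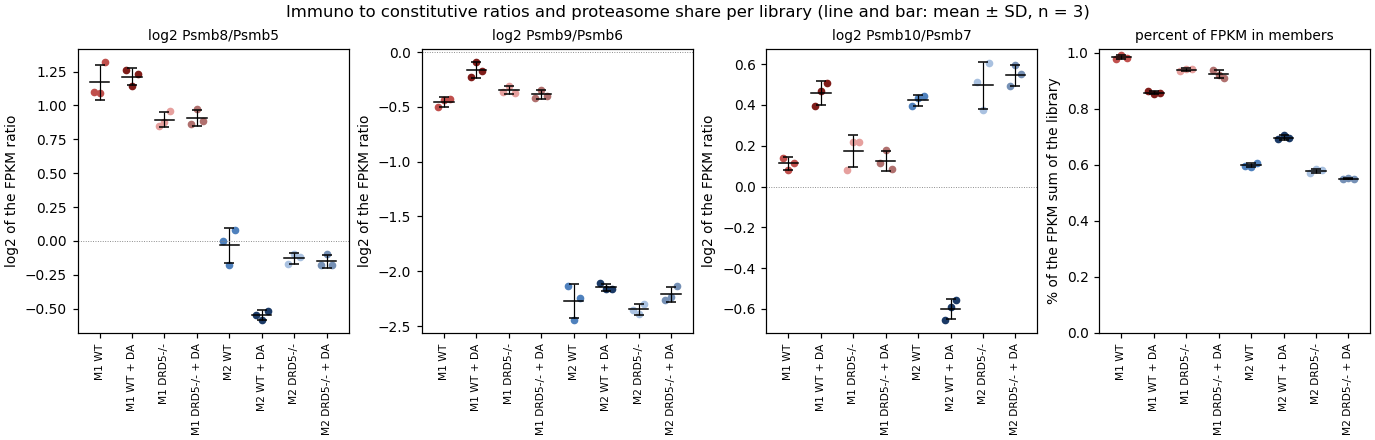
Log2 ratio of each immunoproteasome catalytic gene to its constitutive counterpart (first 3 panels) and the proteasome share of the FPKM sum in % (last panel, from 0) for each library (points), with the mean ± SD (n = 3) of the 8 groups on the x axis. For Psmb10 to Psmb7 the M2 WT + DA libraries lie near -0.60 and every other group lies above 0.

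As a whole the 50 genes took 0.984% ± 0.007 (SD, n = 3) of the FPKM sum in untreated M1 WT and 0.857% ± 0.005 in DA-treated M1 WT libraries, and 0.939% ± 0.005 and 0.924% ± 0.015 in M1 DRD5-/- libraries. The shares in M2 WT libraries were 0.599% ± 0.008 without and 0.697% ± 0.008 with DA, and in M2 DRD5-/- libraries 0.579% ± 0.007 and 0.551% ± 0.001. With and without DA, the WT groups of both stimuli and the M2 DRD5-/- groups did not overlap (exact permutation p = 0.1 each), and the M1 DRD5-/- groups did (exact permutation p = 0.2). The untreated DRD5-/- libraries were below the untreated WT libraries in both stimuli (exact permutation p = 0.1 each). Without the 100 most expressed other genes the difference in M2 was -0.00694 percentage points (exact permutation p = 0.5). The immunoproteasome subgroup made up 27.8% ± 0.35 of the proteasome FPKM in untreated M1 WT and 29.3% ± 0.21 in DA-treated M1 WT libraries. It made up 16.6% ± 0.40 in untreated and 12.9% ± 0.10 in DA-treated M2 WT libraries, and 16.8% ± 0.21 and 16.7% ± 0.16 in the M2 DRD5-/- groups.

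Genes that work with the proteasome were followed as 4 lists, to be read against the 4.73% of all genes that rose and 9.6% that fell with DA in M1 WT, and the 25.9% that rose and 20.4% that fell in M2 WT BMDMs. The lists were fixed with earlier results of these data known. Of 10 tested assembly factors and proteasome-associated enzymes 3 fell with DA in M1 WT cells, and 5 rose and 2 fell in M2 WT cells. Usp14, a deubiquitinase bound to the 19S cap, fell by 0.43 (adjusted p = 1.12e-05, limma) in M1 and rose by 0.68 (adjusted p = 1.39e-10) in M2, and Txnl1, a cap-bound thioredoxin, changed by -0.33 (-0.26, not past the threshold, with median-of-ratios scaling) and 0.48. Pomp, the chaperone of 20S maturation, rose by 0.40 in M2 and was at 0.03 in M1. Uchl5, the other cap deubiquitinase of this list, rose by 0.67 in M2. Adrm1, the ubiquitin receptor RPN13, fell by 0.29 in M1 (past the threshold neither without DA replicate 2, at -0.25, nor with median-of-ratios scaling, at -0.21) and was at 0.20 in M2. Without DA, Adrm1 averaged 63.9 ± 1.22 FPKM (SD, n = 3) in M1 WT and 79.0 ± 0.95 FPKM in M1 DRD5-/- BMDMs. It was the 1 gene of this list past the threshold between untreated genotypes in M1, where 0.936% of all genes were. Of 18 ubiquitin genes and shuttle factors 4 fell in M1, and 5 rose and 2 fell in M2. Nsfl1c, the p47 cofactor of the unfoldase Vcp, changed by -0.47 in M1 and 0.47 in M2, and Vcp itself by -0.33 (-0.25, under 1.2-fold, with median-of-ratios scaling) and 0.12, under 1.2-fold. Uba7, the activating enzyme for the ubiquitin-like ISG15, fell by 0.97 in M2.

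Of 9 regulators of proteasome gene transcription 1 rose (the repressor Bach1, 0.35) and 0 fell in M1. In M2, 2 rose and 3 fell, among them Bach1 (-0.71) and Nfe2l2, the NRF2 factor that binds antioxidant elements (-0.80, adjusted p = 5.71e-13, limma). Nfe2l1, the NRF1 factor of the proteasome recovery response, was at -0.08 in M1 and 0.19 in M2, under 1.2-fold in both. Of 17 class I MHC loading genes and interferon factors, 0 rose and 1 fell in M1 (Irf8, -0.42). In M2, 1 rose and 8 fell: Tap1, the neighbour of Psmb9, rose by 0.48, while the class I loading chaperone Tapbp (-1.01) and the light chain B2m (-0.61) fell most and the interferon factor Irf1 fell by 0.47. Nlrc5, the transactivator of class I MHC genes, was at 0.05 in M1 and -0.19 in M2, not past the threshold in either.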

How the data were processed

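RNA-seq of 24 BMDM libraries was made on a BGISEQ-500. The FPKM values were computed and deposited by the authors, one file per library. The study's methods name HISAT2 and GRCm38.p5, whereas the submitters' processing notes name Bowtie2 2.2.5 and GRCm38.p6, and the files do not settle which applies. The dose of DA comes from the study's legends. Depth is unknown, which leaves the counting error of low values unmeasured.

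Groups followed the labels. Values were taken as log2(FPKM + 1), genes with at least 1 FPKM in at least 3 libraries were kept, and limma 3.58.1 (R 4.3.3) with an intensity trend was fitted to the 4 groups (12 libraries) of each stimulus over all genes, with Benjamini-Hochberg adjustment over all genes tested. Comparisons between M1 and M2 used a joint fit of the genes in both tables. The threshold, an adjusted p under 0.001 with a change of at least 1.2-fold, is the study's. Fold changes on this scale understate those of low genes. Ratios within a library and shares of the FPKM sum were compared by exact permutation tests in scipy 1.17.1 (Python 3.11.15, numpy 2.4.6, pandas 2.3.3, figures by matplotlib 3.10.9). On simulated data with 200 genes changed 1.5-fold, 191 were recovered for DA in M1 WT (9951 genes) and 193 for DA in M2 WT BMDMs (10565 genes), with 0 false calls. The changed genes were drawn above a floor of expression, with rises and falls in equal number. Smaller folds and a shift common to all genes were not simulated.

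The alternatives were a pseudocount of 0.1, no expression filter, median-of-ratios scaling, a replicate block, no intensity trend, an adjusted p under 0.05, leaving out each library and, for the share, leaving out the 100 most expressed other genes. Named with values in every library were the catalytic and immunoproteasome genes, and the gene of each role with the largest change past the threshold with DA in M1 WT and M2 WT BMDMs; of each pathway list, preset regulators and the 2 largest changes were named. Genes named beyond this, as in M1 against M2, were chosen after their values were seen. The members and lists were chosen with earlier results of these data known. Promoters came from RefSeq (GRCm38.p6); 8 of the 50 genes had no entry. One gene of the pathway lists is not reported here.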

Additional observations from a re-analysis of the deposited data

Results flagged for a closer look

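The effect of DA differed between genotypes for 13 of 47 proteasome genes in M1 BMDMs and for 30 of 48 in M2 BMDMs, by the interaction term in limma, where 8.38% and 43.2% of all genes differed. In M1 cells Psmb7 changed by -0.54 in WT and -0.02 in DRD5-/- libraries. In M2 cells Psmg1 changed by 0.93 in WT and -0.13 in DRD5-/- libraries, and Psmb10 by -0.65 and -0.16. The effect of DA differed between M1 WT and M2 WT BMDMs for 37 of 48 genes in the joint fit, where 45.9% of all genes differed, among them Psmb7 and, in the other direction, Psmb10.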

How the results depend on the processing

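Median-of-ratios scaling, which sets the median change of all genes near 0, mattered most. It left 7 genes past the threshold for DA in M1 WT, 4 for genotype with DA in M1, 5 for the interaction in M1 and 2 for DA in M2 DRD5-/- BMDMs. Of all genes, 12.1%, 16.6%, 7.17% and 3.91% were past it, in the same order. Scaling also turned Psmb8 (0.0166) and Psmb9 (0.0643) positive for DA in M1 WT and Psmd9 positive for M1 against M2 (0.0515 in WT, 0.0577 in DRD5-/-). Without the expression filter the interaction in M1 gave 8 calls and DA in M2 DRD5-/- 0, where 3.35% and 1.79% of all genes passed. Without the intensity trend they gave 7 and 0, where 6.34% and 3.65% of all genes passed. At an adjusted p under 0.05, DA in M2 DRD5-/- gave 3, where 6.7% of all genes passed. Without single libraries the count for DA in M2 DRD5-/- was 0 to 2 at the main threshold (2 without untreated replicate 1, 0 without untreated replicate 2 or 3 or DA replicate 1 or 3), and Psmb9 with DA in M1 WT was -0.0429 to 0.0219. Single libraries moved the other counts less: 16 to 18 for DA in M1 WT, 21 to 29 for DA in M2 WT, 9 to 15 for the interaction in M1 and 29 to 34 in M2. Without the 100 most expressed other genes, the change in the proteasome share with DA was -0.167 percentage points in M1 WT and -0.0297 in M1 DRD5-/-. It was 0.116 in M2 WT and -0.0512 in M2 DRD5-/-. The untreated genotypes then differed by -0.0621 in M1 and -0.00694 in M2 (exact permutation p = 0.1 and 0.5). The causes of these shifts were not tested. Replicate numbers did not pair the libraries: residuals of same-numbered libraries correlated at -0.02 on average in both stimuli (18 pairs each). With the replicate block the counts were 17 for DA in M1 WT, 25 for DA in M2 WT and 11 for the interaction in M1. Of all genes, 13.5%, 45.7% and 7.13% passed, in the same order. Unknown depth leaves the precision of low genes such as Psmg1 in M1 unmeasured.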
